A study of Mus musculus with 5 samples.

Results

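Fibroblast growth factors (FGFs) and hepatocyte growth factor (HGF) carry signals between the stroma and the epithelium of the prostate and other ducted glands. FGF7 and FGF10 are made mainly by mesenchymal cells and bind an epithelial splice form of FGF receptor 2, and FGF10 is needed for prostate budding in the embryo. HGF is a stromal ligand of the epithelial receptor tyrosine kinase MET. FGFs act together with heparan sulfate chains, and the receptors relay their signal through adaptor proteins to the ERK and AKT kinases, which induce feedback inhibitors such as the Sprouty proteins. Described here are 10 genes of this system, taken by symbol from the 51912 genes listed: the receptor genes Fgfr1, Fgfr2, Fgfr3, Fgfr4 and Met, and the ligand genes Fgf1, Fgf2, Fgf7, Fgf10 and Hgf. Each symbol matched 1 gene identifier, and all 10 genes passed the filter on low counts that left 18590 genes for testing.

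The samples are labelled as dorsolateral prostate of 3-month-old male mice homozygous for a loxP-flanked growth hormone receptor gene, Ghr (Ghrflox/flox). The 3 control mice had no Cre. The 2 mice of the deletion group also carried 1 copy of Cre-ERT2, a tamoxifen-inducible recombinase, at the ubiquitously active ROSA26 locus (ROSA26Cre-ERT2+/0), so that deletion was not restricted to a cell type. All 5 mice received tamoxifen at 250 mg/kg on each of 5 days, and tissue was collected 1 month later. Samples of a group are separate biological replicates per the series design, and total RNA was sequenced to between 19517831 and 41553558 expected counts per library.

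The label of the tissue was checked against markers. Of the prostate-defining genes, Pbsn (probasin) had 11.1, 475 and 0.816 counts per 1000000 TMM-scaled counts (CPM) in control replicates 1 to 3 and 0.0454 and 8.76 CPM in Ghr deletion replicates 1 and 2. Hoxb13, a posterior homeobox gene of the prostate, had 0.494, 7.71 and 0 CPM and then 0 and 0.227 CPM, so it had no counts in control replicate 3 and Ghr deletion replicate 1. Msmb, another prostate marker, had 11.1, 112 and 0.0441 CPM and then 0 and 0.429 CPM. These markers did not bear out dorsolateral prostate in every library, so the tissue is given here as a label. The 8 seminal vesicle genes examined summed to between 105000 and 451800 CPM, but they were uneven. Of the 8, 6 lay below every control in both Ghr deletion libraries, beside 12.5% of all tested genes, and 0 passed an adjusted p of 0.05 by edgeR (5 had an unadjusted p under 0.05). Svs1, one of the 6, had 32915, 22520 and 58.6 CPM in control replicates 1 to 3 and 0.0454 and 7.90 CPM in the Ghr deletion libraries. For Svs1, control replicate 3 thus stood nearer to the Ghr deletion libraries than to the other controls. So it did for Svs3a, Svs3b, Svs4 and Svs6. For Svs5 it lay between control replicate 2 and Ghr deletion replicate 2, and for Svs2 and Pate4 it was the highest library. The sum of the 8 did not follow Svs1. This sum was 234800 CPM for control replicate 3, level with 234400 for control replicate 2. It was lower for Ghr deletion replicate 1 (105000) and replicate 2 (183300). Ghr itself, counted over the whole gene, had 10.1, 11.8 and 13.2 CPM in the control libraries, against 21.5 and 10.2 CPM in the deletion group (log2 fold change 0.44 with an SE of 0.35, edgeR adjusted p = 0.874), so the count does not show the deletion and "Ghr deletion" below is the label of a library. In RNA from whole tissue, fewer cells of a type and less RNA per cell cannot be told apart.

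None of the 10 genes passed the test of a difference between the groups. By edgeR's quasi-likelihood test over all genes, 0 of 10 passed an adjusted p of 0.05, where 0 of 18590 genes (0%) passed in either direction. At an unadjusted p under 0.05 there were also 0 of 10, beside 4.26% of all tested genes. DESeq2 called 0 of the 10, beside 20 higher and 59 lower of 19698 tested genes. For limma-voom it was also 0 of the 10, beside 0 of 18590. In 2 of the 10 genes, Fgf10 and Met, both Ghr deletion libraries lay above every control, beside 10.8% of all tested genes, and in 0 of 10 both lay below, beside 12.5%. The log2 fold change of Ghr deletion over control was above 0 for 5 of 10 genes, beside 49.4% of all genes, and its median was -0.041, beside -0.0063 over all genes. The 5 genes above 0 were Fgf1, Fgf2, Fgf10, Hgf and Met, and the 5 below 0 were Fgf7 and the 4 FGF receptor genes.

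**Figure D1:**
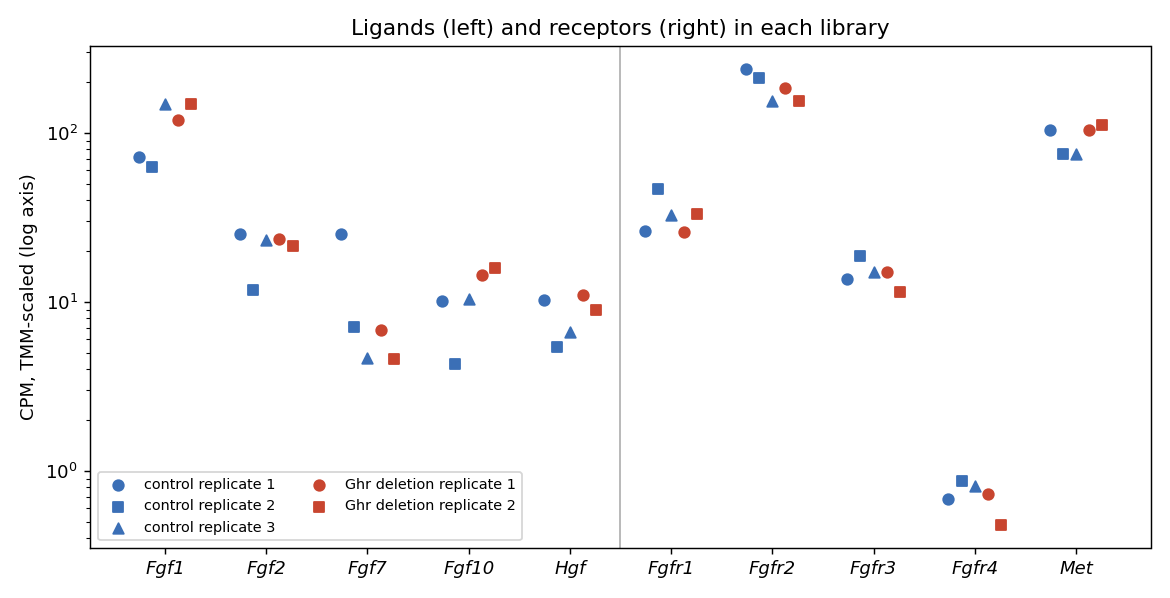
Abundance of the 5 ligand genes (left) and 5 receptor genes (right) in each library, as TMM-scaled CPM on a log axis; each point is 1 library, blue for control and red for Ghr deletion. Both red points lie above all blue points for Fgf10 and, by a margin of 104.75 against 104.5 CPM, for Met.

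The ligands are described first. Fgf10 (ENSMUSG00000021732, GRCm38 chromosome 13, 118669791 to 118792115) had 10.1, 4.32 and 10.4 CPM in control replicates 1 to 3 and 14.4 and 15.8 CPM in Ghr deletion replicates 1 and 2. Both deletion libraries were above the highest control, and control replicate 2 was lower than every other library. The means were 8.27 ± 3.43 CPM (SD, n = 3) and 15.1 ± 1.02 CPM (SD, n = 2). The log2 fold change was 0.86 (SE 0.40, 95% interval -0.13 to 1.85), a 1.82-fold difference that did not pass the test (edgeR adjusted p = 0.874). Among the 10 genes it had the smallest unadjusted p, 0.0763, which ranked 1377 of 18590 genes. Without control replicate 2 the log2 fold change was 0.56.

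Fgf7 (ENSMUSG00000027208, chromosome 2, 126034658 to 126091185) encodes keratinocyte growth factor, the closest relative of FGF10 among the ligands listed. It had 25.3, 7.09 and 4.65 CPM in the control libraries, against 6.81 and 4.59 CPM in the Ghr deletion libraries. Control replicate 1 stood apart from the other 4 libraries, whose values were interleaved. Its log2 fold change of -1.11 (SE 0.77, 95% interval -2.99 to 0.78, edgeR adjusted p = 0.874) rested on that library, and without control replicate 1 it was -0.040. The SD of the controls, 11.3 CPM, was close to their mean of 12.3 CPM.

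Fgf7 and Fgf10 are shown with their upstream sequences because they share a receptor and had differences of opposite sign, and Hgf is shown as the third paracrine ligand of the stroma. The RefSeq promoter table for GRCm38.p6 held 8 of the 9 members looked for. Fgf1 was left out of the search, and Fgfr1 was looked for but had no promoter there. The 250 bases before the start annotated by RefSeq are given on the gene's own strand, 5′ to 3′. The positions are chr2:126034408-126034657 for Fgf7, chr13:118714449-118714698 for Fgf10 and chr5:16553245-16553494 for Hgf, all on the plus strand. For Fgf10 this RefSeq start lies inside the GENCODE gene span given above, and not at its beginning as for Fgf7 and Hgf. Capitals would mark a match to the STAT motif TTCNNNGAA, the androgen receptor half-site TGTTCT or the AP-1 motif TGANTCA, each searched on both strands.
Fgf7: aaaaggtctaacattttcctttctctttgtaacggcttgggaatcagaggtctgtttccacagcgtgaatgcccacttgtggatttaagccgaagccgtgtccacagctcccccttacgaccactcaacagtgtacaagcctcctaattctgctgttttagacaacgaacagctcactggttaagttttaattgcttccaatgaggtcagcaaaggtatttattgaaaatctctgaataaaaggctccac
Fgf10: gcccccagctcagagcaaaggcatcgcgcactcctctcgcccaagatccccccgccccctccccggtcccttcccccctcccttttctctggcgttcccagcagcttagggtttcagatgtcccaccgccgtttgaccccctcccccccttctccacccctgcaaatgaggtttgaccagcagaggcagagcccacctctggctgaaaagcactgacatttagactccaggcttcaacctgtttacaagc
Hgf: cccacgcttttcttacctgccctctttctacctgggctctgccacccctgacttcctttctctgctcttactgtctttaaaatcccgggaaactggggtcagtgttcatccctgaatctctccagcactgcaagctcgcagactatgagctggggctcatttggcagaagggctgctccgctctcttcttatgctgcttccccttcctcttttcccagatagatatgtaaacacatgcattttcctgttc
None of the 3 stretches held a match on either strand, so all letters are lower case. Of the 10 promoters listed for the 8 members, which include a second start each for Fgfr3 and Hgf that are not shown, 1 held a match. It was an AP-1 motif that begins 54 bases before the start of Met, whose stretch is not printed here. Over all 32851 RefSeq promoters of this length, 7.02% held the STAT motif, 16.1% the androgen half-site and 6.75% the AP-1 motif. The 3 stretches differed in base composition, with 43.6% G and C for Fgf7, 61.2% for Fgf10 and 50.8% for Hgf, beside a median of 52.4% over all promoters.

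Because a ratio of genes within a library does not depend on how that library was scaled, Fgf10 was also set against Fgf7 in TPM, the share of transcripts after division by length, per 1000000. The ratio of Fgf10 to Fgf7 was 0.155 and 0.185 in control replicates 1 and 2, 0.804 in control replicate 3, and 0.801 and 1.3 in the Ghr deletion libraries. Control replicate 3 thus lay with the Ghr deletion libraries and not with the other controls, and the groups overlapped. The exact two-sided permutation test gave p = 0.3, where the smallest p that 3 against 2 samples allow is 0.2.

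Hgf (ENSMUSG00000028864, chromosome 5, 16553495 to 16620152) had 10.2, 5.45 and 6.62 CPM in the control libraries, against 10.9 and 9.01 CPM in the Ghr deletion libraries. Control replicate 1 lay between the Ghr deletion libraries, so the groups overlapped. For Hgf the log2 fold change was 0.43 (SE 0.33, 95% interval -0.39 to 1.24, edgeR adjusted p = 0.874). Without control replicate 2 it was 0.25, and without control replicate 1 it was 0.72.

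Fgf1 and Fgf2 encode ligands without a classical secretion signal, and FGF1 binds all FGF receptors. Fgf1 (ENSMUSG00000036585, chromosome 18, 38838673 to 38929472) had 71.8, 62.6 and 149 CPM in the control libraries, against 119 and 147 CPM in the Ghr deletion libraries. Control replicate 3 was the highest of all, and control replicates 1 and 2 were the lowest. Its log2 fold change of 0.50 (SE 0.41, 95% interval -0.52 to 1.51, edgeR adjusted p = 0.874) was 0.98 when control replicate 3 was left out and 0.27 when control replicate 2 was. With control replicates 1 and 2 left out together it was -0.16.

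Fgf2 (ENSMUSG00000037225, chromosome 3, 37348346 to 37410108) had 25.3, 11.8 and 23.3 CPM in the control libraries, against 23.6 and 21.5 CPM in the Ghr deletion libraries. Control replicate 2 was low and the other 4 libraries lay close together, with a log2 fold change of 0.16 (SE 0.35, 95% interval -0.70 to 1.03, edgeR adjusted p = 0.932). Without control replicate 2 the sign turned, to -0.11. Exons of Fgf2 overlap those of Nudt6 on the opposite strand by 640 bases, and the strand setting of the counting is not given in the sources used here. Nudt6 held 37.5 to 104 expected counts per library, against 229 to 1056 for Fgf2.

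The sums of smooth muscle and fibroblast markers were lowest in the library where 4 of these ligands were lowest. So were the sums of several other marker lists. The smooth muscle and fibroblast sums overlapped between the groups. Summed over 8 smooth muscle markers, the level was 5623, 2391 and 7772 CPM in the control libraries, against 6428 and 6827 CPM in the Ghr deletion libraries, lowest in control replicate 2, as for Fgf1, Fgf2, Fgf10 and Hgf. Summed over 9 fibroblast markers, it was 2498, 1307 and 3160 CPM and then 3941 and 1847 CPM, again lowest in control replicate 2. No marker of either list was at 0 in any library. Single markers could differ from their list, as Smtn was highest in control replicate 2 (114 CPM) and Col1a1 lowest in control replicate 1 (105 CPM). Sums of endothelial (86.2 CPM), leukocyte (63.4 CPM), proximal luminal (227.7 CPM) and adipocyte markers were also lowest in control replicate 2. Those of basal and of nerve markers were highest there. Adipocyte markers, at low levels, summed higher in both Ghr deletion libraries than in every control. Their 8 genes summed to 3.21, 1.90 and 2.78 CPM in the control libraries, against 17.0 and 5.25 CPM in the Ghr deletion libraries. Of 7 tested, 6 lay above every control in both Ghr deletion libraries, beside 10.8% of all tested genes, and 0 passed an adjusted p of 0.05 by edgeR (5 had an unadjusted p under 0.05). Adipoq, Lep, Plin1 and Cidec passed the filter on low counts only through the Ghr deletion libraries, with at most 9 counts in a control. Neither the count of 6 nor that of 5 can therefore be set fairly against a share over all genes. Pparg, the other tested gene of the list, overlapped between the groups. It had 0.864, 0.719 and 0.265 CPM in the control libraries, against 1.09 and 0.328 CPM in the Ghr deletion libraries. Lep, which encodes leptin, was at 0 in every control. The part of these marker lists in the values of the ligands was not tested.

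The receptors for FGFs had small differences. Fgfr2 (ENSMUSG00000030849, chromosome 7, 130162451 to 133123350) had 240, 212 and 154 CPM in the control libraries, against 185 and 154 CPM in the Ghr deletion libraries. Both Ghr deletion libraries lay below control replicates 1 and 2, and control replicate 3 was level with Ghr deletion replicate 2. For Fgfr2 the log2 fold change was -0.25 (SE 0.27, 95% interval -0.92 to 0.41, edgeR adjusted p = 0.88), and it was 0.14 without control replicates 1 and 2 together. Exons annotated to Fgfr2 overlap those of Ctbp2 on the same strand by 314 bases, so some of its counts may depend on how reads were shared.

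Fgfr1 (ENSMUSG00000031565, chromosome 8, 25513654 to 25575718), the main FGF receptor of mesenchymal cells, had 26.4, 46.4 and 32.5 CPM in the control libraries, against 26.0 and 33.3 CPM in the Ghr deletion libraries. Control replicate 2 was highest and the rest were interleaved, with a log2 fold change of -0.24 (SE 0.29, 95% interval -0.97 to 0.48, edgeR adjusted p = 0.885). Without control replicate 2 it was 0.0085. Fgfr3 (ENSMUSG00000054252, chromosome 5, 33721674 to 33737068) had 13.6, 18.7 and 15.1 CPM in the control libraries, against 15.0 and 11.4 CPM in the Ghr deletion libraries. Ghr deletion replicate 1 lay among the controls and replicate 2 below them, and the log2 fold change was -0.26 (SE 0.24, 95% interval -0.86 to 0.34, edgeR adjusted p = 0.874).

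Fgfr4 (ENSMUSG00000005320, chromosome 13, 55152640 to 55168759), a receptor best known from liver, was near the lower limit of these data. It had 11, 17 and 37 counts in the controls and 32 and 19 counts in the Ghr deletion libraries, or 0.679, 0.873 and 0.816 CPM and then 0.726 and 0.479 CPM. For Fgfr4 the log2 fold change was -0.39 (SE 0.47, 95% interval -1.53 to 0.76, edgeR adjusted p = 0.885), so at this depth neither a 2-fold fall nor a rise of 1.5-fold lay outside the interval.

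Met (ENSMUSG00000009376, chromosome 6, 17463800 to 17573980), the receptor of HGF, was measured with the smallest standard error of the 10 genes. It had 104.5, 74.8 and 74.8 CPM in the control libraries, against 104.75 and 112 CPM in the Ghr deletion libraries. Both Ghr deletion libraries were above the controls, but control replicate 1 and Ghr deletion replicate 1 differed by less than 1 CPM. The means were 84.7 ± 17.1 CPM (SD, n = 3) and 108 ± 5.09 CPM (SD, n = 2). The log2 fold change was 0.36 (SE 0.23, 95% interval -0.21 to 0.92), a 1.28-fold difference that did not pass the test (edgeR adjusted p = 0.874). Without control replicate 1 it was 0.53, and with DESeq2's size factors in edgeR the groups overlapped. The ratio of Hgf to Met in TPM was 0.198, 0.139 and 0.193 in the controls and 0.214 and 0.158 in the Ghr deletion libraries (exact two-sided permutation test, p = 0.8).

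**Figure D2:**
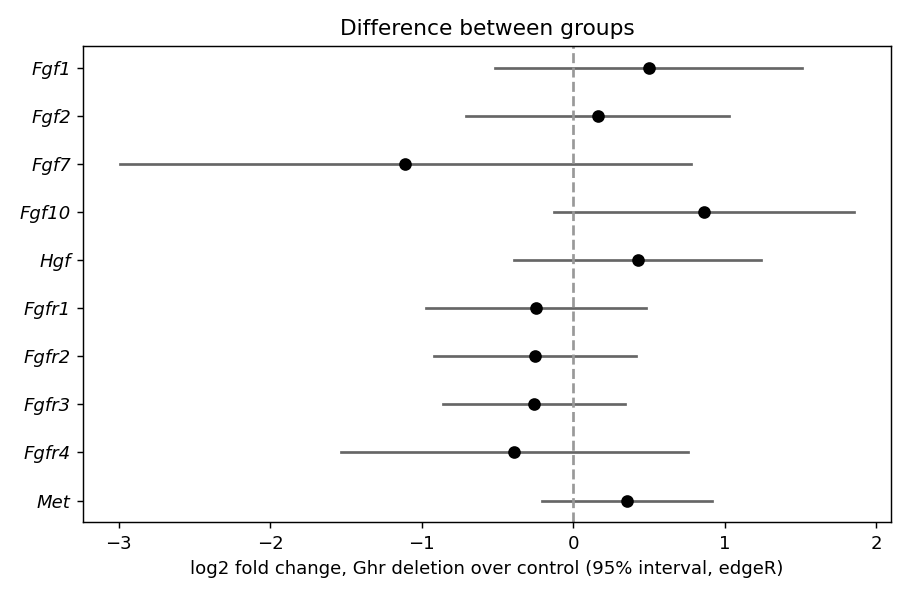
Log2 fold change of Ghr deletion over control for each gene (points) with its 95% interval (lines) from edgeR's quasi-likelihood test on 3 control and 2 Ghr deletion libraries. All 10 intervals include 0, and the interval of Fgf7, from -2.99 to 0.78, is the widest.

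Epithelial markers were uneven over the same libraries. Epcam and Cdh1 were present in every library, and the 8 luminal markers together had 2152, 1910 and 1380 CPM in the control libraries, against 2106 and 1298 CPM in the Ghr deletion libraries. This sum was lowest in control replicate 3 and Ghr deletion replicate 2, as was Fgfr2. Without Cd24a, the most abundant of the 8, the other 7 had 853, 1259 and 776.5 CPM and then 943 and 723 CPM, again lowest in those libraries. Of the 1259 CPM in control replicate 2, Pbsn gave 475 and Msmb 112. Epcam and Krt18 were lowest in that library, at 93.1 and 224 CPM, and Krt8 and Cdh1 in Ghr deletion replicate 2, at 109 and 201 CPM. The order of the libraries thus depends on which luminal markers are summed. Of the 6 basal markers, Dst alone made up most of the sum and was highest in control replicate 2, at 921 CPM, where Fgfr1 and Fgfr3 were also highest. The other 5 basal markers together were not raised there, with 104, 104 and 102 CPM in the control libraries, against 99.5 and 84.3 CPM in the Ghr deletion libraries. Of the 6, 3 (Krt5, Krt14 and Krt17) lay below every control in both Ghr deletion libraries, beside 12.5% of all tested genes. The groups overlapped for Krt15 (log2 fold change 0.39), Trp63 (-0.052) and Dst. By edgeR 0 of the 6 passed an adjusted p of 0.05 (1 had an unadjusted p under 0.05). Of the 7 markers of proximal luminal cells, Clu made up most of the sum, with 267, 183.2 and 2368 CPM and then 6193 and 1874 CPM. The other 6 together had 56.9, 44.6 and 21.3 CPM and then 25.5 and 22.5 CPM, and they did not move alike. Of 6 tested proximal genes, 3 lay above every control in both Ghr deletion libraries and 2 lay below, Krt7 and Ly6d, beside 10.8% and 12.5% of all tested genes. Of these 6, 0 passed an adjusted p of 0.05 by edgeR (3 higher and 2 lower had an unadjusted p under 0.05). The part of cell composition in the receptor values was not tested.

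To set the genes against each other, CPM was divided by each gene's effective length in kilobases. On this scale Fgfr2 was the most abundant of the 10 genes in all 5 libraries, with 86.7 ± 21.2 CPM per kilobase in the controls (SD, n = 3) and 80.04 ± 12.3 in the Ghr deletion libraries (SD, n = 2). Fgf1 followed with 28.9 ± 11.6 and 36.3 ± 6.06 CPM per kilobase, and Met with 16.0 ± 3.16 and 20 ± 0.756. The ranges over the 5 libraries did not overlap between Fgfr2 and Fgf1, or between Fgf1 and Met. Fgf1 did overlap in range with Fgfr1, which had 24.06 CPM per kilobase in control replicate 2, against 23.79 for Fgf1. The next genes by mean level were Fgfr1, Fgfr3, Fgf7, Fgf2, Hgf and Fgf10, and from Met to Fgf10 each gene overlapped in range with the one before or after it in this order, while Fgf10 and Fgfr4 did not overlap. Fgf10 ran from 1.10 to 4.05 CPM per kilobase. Fgfr4 was last in every library, at 0.154 to 0.279 CPM per kilobase.

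Among the 4 FGF receptor genes, Fgfr2 made up 85.2%, 68.8% and 81.1% of their summed TPM in the controls and 84.2% and 80.8% in the Ghr deletion libraries. Fgfr1 made up 8.59% to 20.8%, Fgfr3 6.02% to 10.2% and Fgfr4 0.172% to 0.298%. Control replicate 2 had the lowest share of Fgfr2 and the highest of Fgfr1. The ratio of Fgfr2 to Fgfr1 in TPM was 9.92, 3.31 and 6.68 in the controls and 9.75 and 6.55 in the Ghr deletion libraries, so the groups overlapped (exact two-sided permutation test, p = 0.8).

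Among the 4 FGF ligand genes, Fgf1 made up 46.8%, 72.5% and 79.9% of their summed TPM in the controls and 72.0% and 78.7% in the Ghr deletion libraries. The share of Fgf7 was 37.4%, 18.0% and 6.32% in the controls and 10.4% and 6.02% in the Ghr deletion libraries. Fgf10 had 5.82%, 3.33% and 5.08% and then 8.30% and 7.85%, so its share, like its CPM, was higher in both Ghr deletion libraries than in each control.

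**Figure D3:**
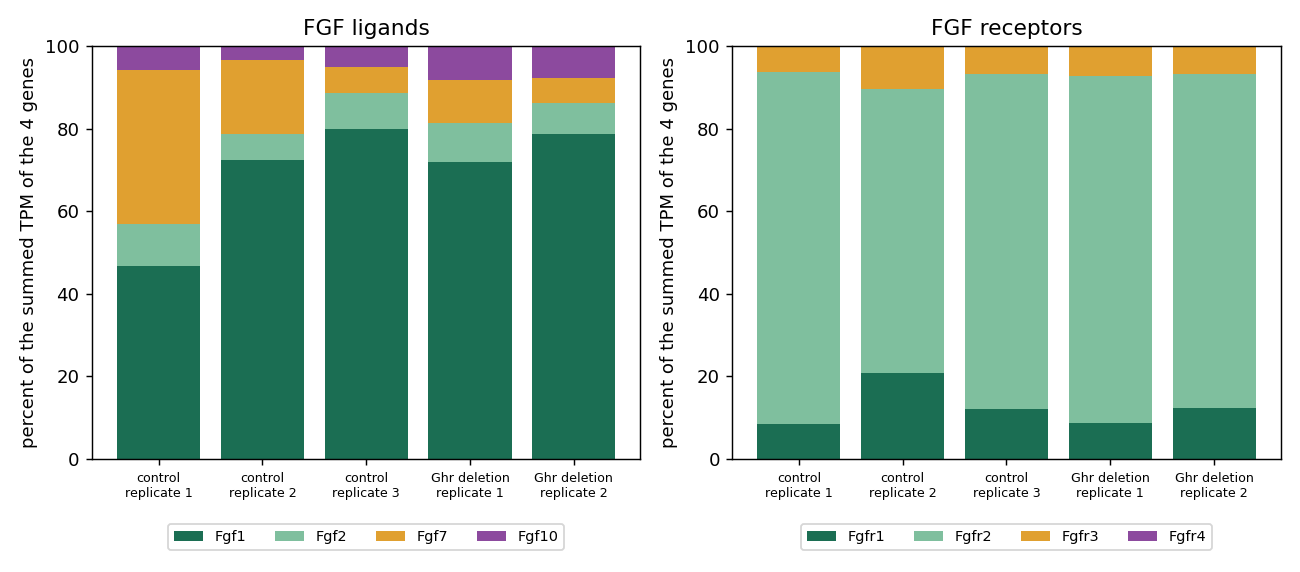
Share of each gene in the summed TPM of 4 FGF ligand genes (left) and 4 FGF receptor genes (right) in each library, in percent. Fgfr2 takes 68.8% to 85.2% of the receptor sum, and the Fgf7 share is largest in control replicate 1, at 37.4%.

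**Figure D4:**
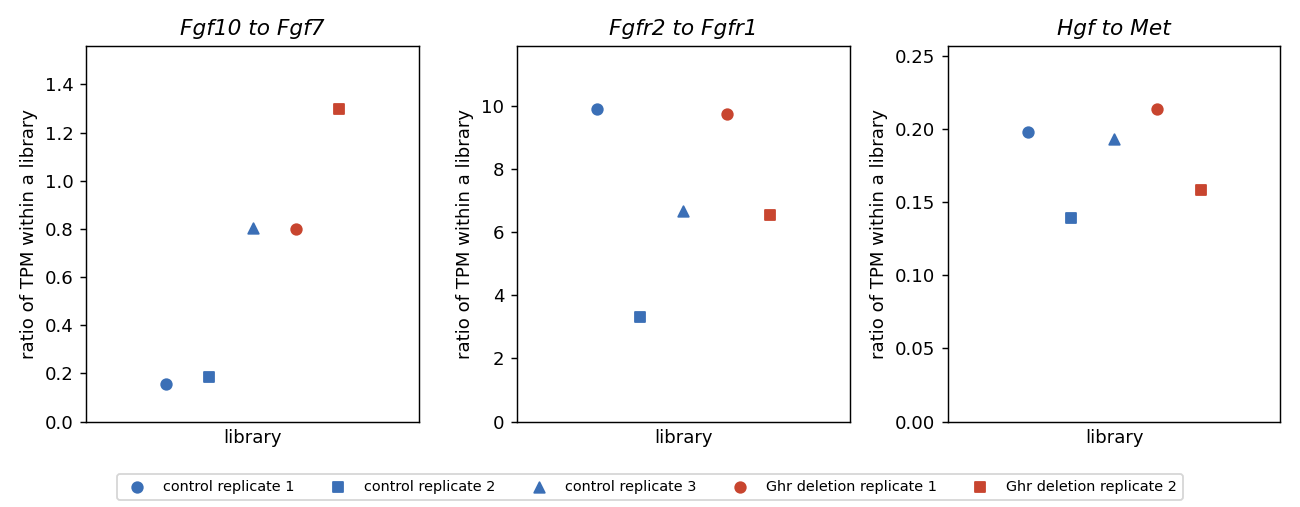
Ratio of TPM within each library for Fgf10 to Fgf7, Fgfr2 to Fgfr1 and Hgf to Met; each point is 1 library, blue for control and red for Ghr deletion, and each axis starts at 0. For Fgf10 to Fgf7, control replicate 3 (0.804) sits with the Ghr deletion libraries (0.801 and 1.3) and above the other controls (0.155 and 0.185).

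Which exons of the receptor genes are used decides which ligands they bind, and the deposited values are sums over each gene's transcripts. The effective length that RSEM assigned to a gene changes with the mix of its transcripts and, by a small amount, with fragment size. It hardly differed between libraries for Fgf10 (3889 to 3925 bases) and Fgfr4 (3099 to 3135 bases). It differed by 1.71-fold for Fgfr3, with 2690 bases in control replicate 3 and 1577 to 2059 in the other libraries. Fgfr1 had 1928 bases in control replicate 2, 2363 in control replicate 1 and 2855 to 3098 in the other 3 libraries. Fgfr2 had 2660 bases in control replicate 2 and 2082 to 2205 in the others, and Fgf1 had 2630 bases in control replicate 2 and 3465 to 3726 in the others. Control replicate 2, the library with the most Pbsn, thus had the lowest length of the 5 libraries for Fgfr1 and Fgf1 and the highest for Fgfr2. This was not particular to these genes. It also had the lowest length for Fgfr3, Fgf7 (1200 bases) and Met (4989 bases) and the highest for Fgf2 (5784 bases). It was highest for Fgf10 and Fgfr4 too, but within the small spread given above, so those extremes say little about the mix of transcripts. Only for Hgf was it not at an extreme. With effective lengths as offsets the log2 fold change of Fgfr1 was -0.60 and that of Fgfr2 -0.12, and 0 of the 10 genes passed.

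The rest of the pathway was followed in 6 gene lists, and 0 genes of any list passed an adjusted p of 0.05 by edgeR. Of 18 other FGF family genes, 5 were tested, and their median log2 fold change was 0.21. The tested genes included intracellular factors, so this median does not describe secreted ligands. The 13 that were not tested had at most 9 counts in a library, and 6 of these had no counts at all. Fgf12, an intracellular FGF homologous factor that does not act through FGF receptors, had 0.556, 1.03 and 1.21 CPM in the control libraries, against 2.18 and 2.47 CPM in the Ghr deletion libraries (log2 fold change 1.3, SE 0.45). Both Ghr deletion libraries lay above the controls. Fgf9, a secreted ligand, had 0.60 (SE 0.42) as its log2 fold change, and Fgf14, a second intracellular factor, -0.40 (SE 0.60), with overlapping groups.

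Of 15 tested co-receptors and binding proteins, 3 lay above every control in both Ghr deletion libraries and 1 lay below, beside 10.8% and 12.5% of all tested genes. The list had a median log2 fold change of 0.29. Gpc1, a glypican that carries heparan sulfate at the cell surface, had 30.1, 20.7 and 17.8 CPM in the control libraries, against 11.2 and 11.2 CPM in the Ghr deletion libraries. Its log2 fold change of -1.03 (SE 0.28) had the smallest unadjusted p of the 6 lists, 0.0112, and an edgeR adjusted p of 0.874. Other glypicans lay on the other side. Gpc3 had 0.679, 1.75 and 3.37 CPM in the control libraries, against 10.1 and 3.41 CPM in the Ghr deletion libraries (log2 fold change 1.78, SE 0.74), so that Ghr deletion replicate 2 was only just above control replicate 3. Gpc4 had 0.69 (SE 0.34). Among 13 genes of heparan sulfate synthesis and editing, the median was -0.042, and 0 lay above and 2 below every control in both Ghr deletion libraries, beside 10.8% and 12.5% of all tested genes. The 3 with the smallest p were Hs2st1, a sulfotransferase (log2 fold change -0.73, SE 0.39), Hs3st1, another sulfotransferase (-0.70, SE 0.44), and Ext1, a subunit of the chain polymerase (-0.34, SE 0.22).

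Of 24 adaptors and relay genes, 4 lay above and 5 below every control in both Ghr deletion libraries, beside 10.8% and 12.5% of all tested genes. They had a median log2 fold change of 0.054. Map2k2, which encodes a kinase that activates ERK, had 21.2, 39.7 and 22.2 CPM in the control libraries, against 14.0 and 16.2 CPM in the Ghr deletion libraries (log2 fold change -0.88, SE 0.34). Hras, a small GTPase, had -0.45 (SE 0.19), and Akt1, a kinase downstream of phosphoinositide 3-kinase, had -0.38 (SE 0.19). Each of these 3 had lower values in both Ghr deletion libraries than in any control, and each had an edgeR adjusted p of 0.874.

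Feedback inhibitors and target genes of FGF and ERK signalling had a median log2 fold change of 0.12 over 17 tested genes, and 4 lay above and 1 below every control in both Ghr deletion libraries, beside 10.8% and 12.5% of all tested genes. Etv5, an ETS transcription factor induced by FGF signalling, had 11.9, 8.01 and 15.3 CPM in the control libraries, against 15.7 and 25.2 CPM in the Ghr deletion libraries (log2 fold change 0.80, SE 0.35, edgeR adjusted p = 0.874). Ghr deletion replicate 1 was only just above control replicate 3. Ier3, an early response gene, had 0.64 (SE 0.35). Etv1, another ETS factor, had 30.2, 19.6 and 7.96 CPM in the control libraries, against 10.1 and 10.9 CPM in the Ghr deletion libraries (log2 fold change -0.87, SE 0.54), so control replicate 3 was lowest of all.

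HGF is secreted as an inactive chain that serine proteases cleave, and 10 of 12 genes for such proteases, their inhibitors and the related MST1 system were tested. Their median log2 fold change was 0.065. Mst1r, which encodes the MET relative RON, had 7.10, 8.01 and 3.00 CPM in the control libraries, against 2.56 and 2.62 CPM in the Ghr deletion libraries (log2 fold change -1.21, SE 0.48, edgeR adjusted p = 0.874). Control replicate 3 lay close to the Ghr deletion libraries. Hpn, which encodes the HGF-cleaving protease hepsin, had 2.41, 4.57 and 12.4 CPM in the control libraries, against 19.4 and 11.7 CPM in the Ghr deletion libraries (log2 fold change 1.25, SE 0.67), and again control replicate 3 lay with them. Hgfac, the HGF activator, had -0.76 (SE 0.54) at 0.833 to 2.31 CPM.

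**Figure D5:**
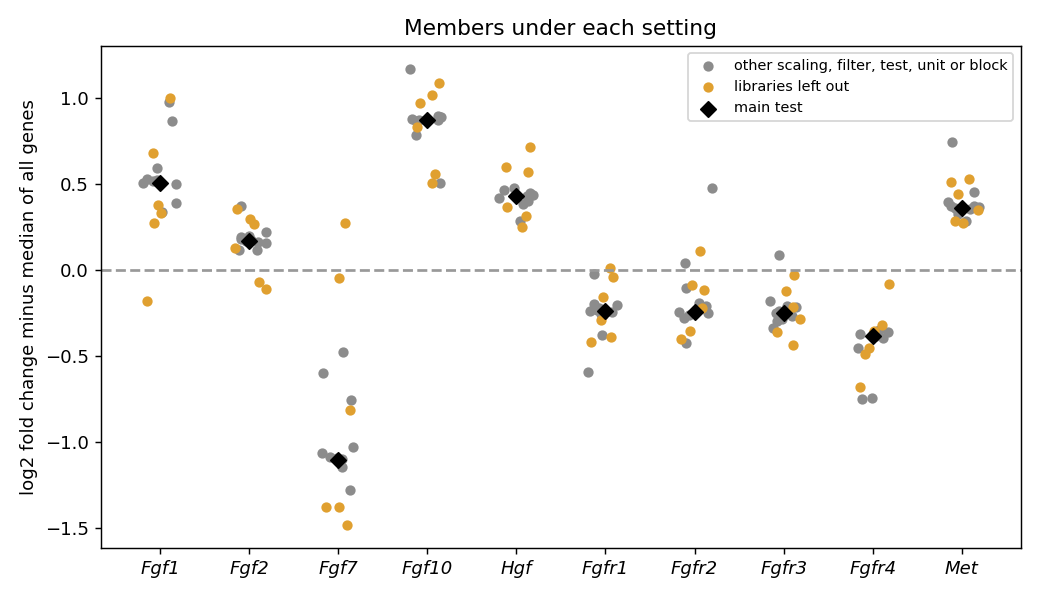
Log2 fold change of each gene minus the median of all genes, in the main test (black), with libraries left out (orange) and under other scalings, filters, tests, units or the replicate block (grey). Fgf10, Hgf and Met stay above 0 in all 17 alternatives, while Fgf7 runs from -1.48 to 0.27.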

How the data were processed

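Per the labels, flash-frozen tissue gave total RNA for libraries by the TruSeq Stranded Total RNA guide. GRCm38, RSEM 1.3.0, STAR 2.5.3a and bcl2fastq 2.20.422 are named in the submitters' processing notes. The sources used here do not give the annotation or strand setting. The authors deposited 1 RSEM table per sample with expected counts, TPM (expected count per effective length, scaled to the library) and effective lengths in bases. RSEM shares reads that fit several genes.

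Expected counts were rounded, filtered with filterByExpr, scaled by TMM and tested with edgeR 4.0.16 in R 4.3.3 (quasi-likelihood, group only, Benjamini-Hochberg over 18590 genes). Alternatives used DESeq2 1.42.0 and limma 3.58.1. SE and 95% intervals come from the F statistic. An exact test of 3 against 2 samples cannot go below p = 0.2.

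The 10 genes and all lists were chosen with earlier results of these data known. All 10 members, and of each pathway list the 3 genes with the smallest p, were named. Marker genes named singly, such as Pbsn and Hoxb13, were chosen after their values were seen. Symbols matched 99.5% of identifiers. Coordinates are GENCODE M21. The planned comparison of protein sequences was not analysed here. A luminal marker of the original list is not reported here.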

Additional observations from a re-analysis of the deposited data

How the results depend on the processing

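Over 17 alternatives, Fgf10, Hgf and Met kept a log2 fold change above 0 in every one, from 0.53 to 2.22, 0.25 to 1.75 and 0.27 to 1.78. No member passed an adjusted p of 0.05 except Fgf10 on log2(TPM + 1), at 0.0357 (adjusted p 0.0357 to 1 over the alternatives), which made 1 member called. There TPM moved the median of all genes to 0.87, and 2230 genes were called higher and 60 lower. On log2(TPM + 0.1) the shift was 1.33, with 686 higher and 47 lower, and with library size only it was 0.58. Signs turned under these 3 scalings for Fgfr1 (0.84, 0.95 and 0.38), Fgfr2 (1.34, 1.37 and 0.39), Fgfr3 (0.95, 1.15 and 0.38) and Fgfr4 (0.12, 0.58 and 0.22), and under TPM for Fgf7 (0.39 and 0.57), and the members' median was 1.08, 1.46 and 0.55. After the shift was taken off, Fgfr2 on log2(TPM + 1) and on log2(TPM + 0.1) and Fgfr3 on log2(TPM + 1) were still above 0. With control replicates 1 and 2 both left out, which leaves 1 control assumed to vary like the others, Fgfr2 (0.14), Fgf1 (-0.16), Fgf2 (-0.045) and Fgf7 (0.30) turned. Leaving out control replicate 2 turned Fgfr1 (0.0085) and Fgf2 (-0.11), and with any 1 library left out these ran from -0.43 to 0.0085 and from -0.11 to 0.36. The members' median of -0.041 ran from -0.051 to 0.15 with 1 library left out, and was 0.16 with the filter at CPM 1 (which leaves out Fgfr4), 0.0025 with limma-voom, 0.046 without control replicates 1 and 2 together and 0.013 with the replicate block.

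The members above every control numbered 1 with DESeq2's size factors in edgeR, 6 with library size only and 8 on either TPM scale. The members below every control numbered 0 to 4 with 1 library left out, 2 without control replicates 1 and 2 together and 2 with the replicate block. The share of all tested genes above or below every control was not counted under these settings. These counts therefore show how the settings act and are not a result about the members. Over all genes DESeq2 called 20 higher and 59 lower, no filter called 2 higher, and leaving out 1 library called 0 to 15 higher and 0 to 33 lower, the largest without control replicate 3. The replicate block, on replicates 1 and 2 of each group, called 480 higher and 519 lower but 0 members (Fgf1 adjusted p = 0.0728, log2 fold change 0.98). Nothing in the labels pairs the samples, and with only 2 pairs (correlation of deviations 0.281 and 0.296) the numbers are taken as names only. With 2 Ghr deletion libraries the 95% interval of Fgf10 still spans -0.13 to 1.85, and Fgfr4 rests on 11 to 37 counts.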
